A study of Mus musculus with 48 samples.

Results

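The genes described here are the subunits and assembly factors of the proteasome, measured by RNA-seq in natural killer (NK) cells of the mouse spleen. They are the gene symbols that begin with Psma to Psmg followed by a digit and that averaged at least 5 CPM, a read count scaled to the size of its library, over all 48 libraries. The rule kept 48 of 50 matching symbols, of 24328 symbols in all. The members nearest above the threshold were Psmc3ip at 5.16 CPM and Psmg4 at 12.8 CPM, and the matching symbols below it were Psma8 at 0.144 CPM and Psmb11 at 0.00637 CPM. Psma8 encodes an alpha subunit of the testis and Psmb11 a catalytic subunit of the thymus. Psmc3ip matches by spelling only, since it encodes a cofactor of meiotic recombination. Psme2b is a retrocopy of Psme2, and reads of the pair can be counted for each other.

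The libraries fall into 14 groups from 3 experiments. In the conditional experiment, the cKO animals carry Bach2flox/flox and Ncr1Cre and the cWT animals carry Ncr1Cre, so both genotypes share the Cre, which is driven by a gene of the NK lineage. For each genotype there are 3 libraries of each of 4 fractions, named NK, iNK, mNK1 and mNK2. The chimera experiment holds 4 libraries of Bach2-KO NK cells and 4 of WT NK cells from hosts that received WT and Bach2-KO marrow in about equal parts, so the cells of both genotypes matured in hosts with mixed marrow. The WT subset experiment holds 4 libraries each of iNK, mNK1, KLRG1- mNK2 and KLRG1+ mNK2 cells, and KLRG1 is an inhibitory receptor that marks late NK cells. The abbreviations are not spelled out in the labels, where iNK usually means immature and mNK mature NK cells. The labels used here give no age, no gates and no statement that replicates are separate animals, so p-values measure only the spread between these samples.

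Bach2, which encodes a transcriptional repressor and is the targeted gene, stood at 1.44, 3.11, 2.69 and 1.22 CPM in the KO libraries of the chimeras, against 14.8, 13.1, 18.4 and 15.6 CPM in the WT libraries. In the conditional experiment the Bach2 transcript was not lower in the libraries labelled cKO. Its values there were 18.6, 20.7 and 23.4 CPM in cKO NK cells, against 13.2, 9.82 and 18.8 CPM in cWT NK cells, and the log2 differences in the 4 fractions ran from 0.53 to 0.90 with no adjusted p under 0.05 (edgeR, lowest 0.0776). Which part of the gene the floxed alleles remove is not stated in the labels, so the count over the whole gene is no check of those labels.

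The proteasome degrades proteins that carry ubiquitin chains. Its 20S core is a barrel of alpha and beta subunit rings in which 3 kinds of beta subunit cut peptide bonds, and the 19S cap holds ATPases that unfold the substrate and non-ATPase subunits that bind and remove ubiquitin. In cells of the immune system, or under interferon, the catalytic subunits Psmb5, Psmb6 and Psmb7 are replaced by Psmb8, Psmb9 and Psmb10, which gives the immunoproteasome, whose peptides are well suited to loading on MHC class I. The PA28 activator, built from Psme1 and Psme2, is likewise induced by interferon, and Psmg1 and Psmg2 encode the chaperone pair that starts the assembly of the alpha ring.

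Promoter letters are shown for 2 immunoproteasome genes, the first PA28 gene and 2 constitutive catalytic genes. In a stage comparison below the first 3 were called lower and the other 2 were not called. Each line gives the 250 bases before the annotated start of transcription, 5′ to 3′ on the strand of the gene, from RefSeq (GRCm38.p6). Capitals mark a match to the gamma-interferon site pattern TTCNNNGAA or to the antioxidant-response core pattern TGACNNNGC. Psmb9 lies on the minus strand at chr17:34187331-34187580, Psmb8 on the plus strand at chr17:34197945-34198194, Psme1 on the plus strand at chr14:55578244-55578493, Psmb5 on the minus strand at chr14:54617996-54618245 and Psmb6 on the plus strand at chr11:70525107-70525356.
Psmb8: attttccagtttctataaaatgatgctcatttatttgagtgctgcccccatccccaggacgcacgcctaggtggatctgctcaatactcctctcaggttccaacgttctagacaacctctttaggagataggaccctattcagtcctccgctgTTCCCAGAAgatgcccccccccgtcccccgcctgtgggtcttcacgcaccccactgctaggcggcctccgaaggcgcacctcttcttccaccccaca
Psmb9: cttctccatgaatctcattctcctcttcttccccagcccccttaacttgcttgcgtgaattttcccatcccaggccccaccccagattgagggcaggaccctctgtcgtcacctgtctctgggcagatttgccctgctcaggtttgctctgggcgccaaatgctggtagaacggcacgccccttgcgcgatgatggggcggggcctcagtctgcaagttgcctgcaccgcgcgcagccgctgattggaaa
Psme1: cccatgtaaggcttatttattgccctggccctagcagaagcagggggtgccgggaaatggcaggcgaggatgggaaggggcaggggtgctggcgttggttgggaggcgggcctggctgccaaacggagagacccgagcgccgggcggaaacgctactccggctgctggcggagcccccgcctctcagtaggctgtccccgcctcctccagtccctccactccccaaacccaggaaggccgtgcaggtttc
Psmb5: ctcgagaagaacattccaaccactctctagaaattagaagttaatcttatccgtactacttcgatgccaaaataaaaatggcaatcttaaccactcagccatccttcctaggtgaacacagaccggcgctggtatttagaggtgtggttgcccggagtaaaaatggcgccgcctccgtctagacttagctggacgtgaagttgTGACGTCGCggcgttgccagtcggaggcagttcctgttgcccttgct
Psmb6: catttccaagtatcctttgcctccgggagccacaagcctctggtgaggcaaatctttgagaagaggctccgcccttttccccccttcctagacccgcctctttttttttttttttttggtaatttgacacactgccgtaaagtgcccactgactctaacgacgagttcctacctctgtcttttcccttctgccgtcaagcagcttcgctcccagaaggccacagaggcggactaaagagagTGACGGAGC
Of the 48 members, 41 were matched by symbol to this table. Windows of 300 bases (250 before and 50 after the start) were searched on both strands for the patterns, and 2288 of 27025 promoters held TTCNNNGAA (8.47%), among them 3 members, Psmb8, Psmd2 and Psmg1. In Psmb8 the match TTCCCAGAA began 97 bases before the start. The pattern TGACNNNGC was found in 3369 promoters (12.5%) and in 6 members, and Psmb5 held TGACGTCGC 47 bases and Psmb6 held TGACGGAGC 9 bases before the start. The pattern GAAANNGAAA, a tandem as in interferon-response elements, was found in 943 promoters (3.49%) and in 5 members. Psme1 is among them, and its match TTTCGCTTTC lies 9 bases after the start, outside the letters shown. The Psmb9 window held no match to these 3 patterns. Neither did the windows of Psmb10 and Psme2, which were called lower in the same stage comparison but are not shown. The Psmb9 window overlaps by 275 bases with that of Tap1, the peptide transporter gene transcribed the other way. The members matched by each pattern are a description of letters, and whether any factor binds there was not tested.

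The conditional libraries held 13650636 to 21029172 counts each, those of WT subsets 8973777 to 11924274 and those of chimeras 8557018 to 12927472. Rn45s, a ribosomal RNA gene, made up 0.089 to 0.36% of the conditional counts, 18.6 to 29.1% of WT subset counts and 20 to 25.8% of chimera counts. The experiments were therefore fitted apart with edgeR, on 12258, 11051 and 10614 genes in the order conditional, WT subsets and chimeras, and all 48 members passed the low-count filter in each. Levels below are CPM scaled by TMM factors within an experiment, and a gene is called at a Benjamini-Hochberg adjusted p under 0.05 over all genes of the comparison. The members took a mean of 0.809 to 1.14% of the counts outside Rn45s in the 14 groups. NK identity was visible in every fraction: the summed level of the NK core list (Ncr1, Nkg7, Prf1 and others) was at least 5689 CPM in each library. Since the samples are bulk RNA, fewer cells of a type and less RNA per cell cannot be told apart.

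Per length, the immunoproteasome subunit Psmb8 and the PA28 subunit Psme1 were the 2 highest members in each experiment. Psmb8 stood at 526 CPM per kilobase of transcript in the conditional libraries, 464 in WT subsets and 489 in chimeras, and Psme1 stood at 528, 345 and 344. The constitutive counterpart of Psmb8, Psmb5, averaged 57.7 CPM per kilobase in the WT subsets. Psmb10 was at 248 and Psmb9 at 165 CPM per kilobase there, and Psmb6 at 259. The catalytic pairs thus differed in balance: Psmb8 was far above Psmb5 per length, while Psmb9 was below Psmb6. The order of Psmb9 and Psmb6 depends on the transcript lengths used, 1352 and 798 bases. Without length, the mean log2 count ratio of Psmb9 to Psmb6 was 0.41 in WT iNK and 0.25 in WT mNK1 cells. It was -0.15 in KLRG1- and -0.10 in KLRG1+ mNK2 cells. At the low end stood Psme4, which encodes the PA200 activator, with 2.52 CPM per kilobase in the conditional libraries and 2.74 in the WT subsets.

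**Figure D1:**
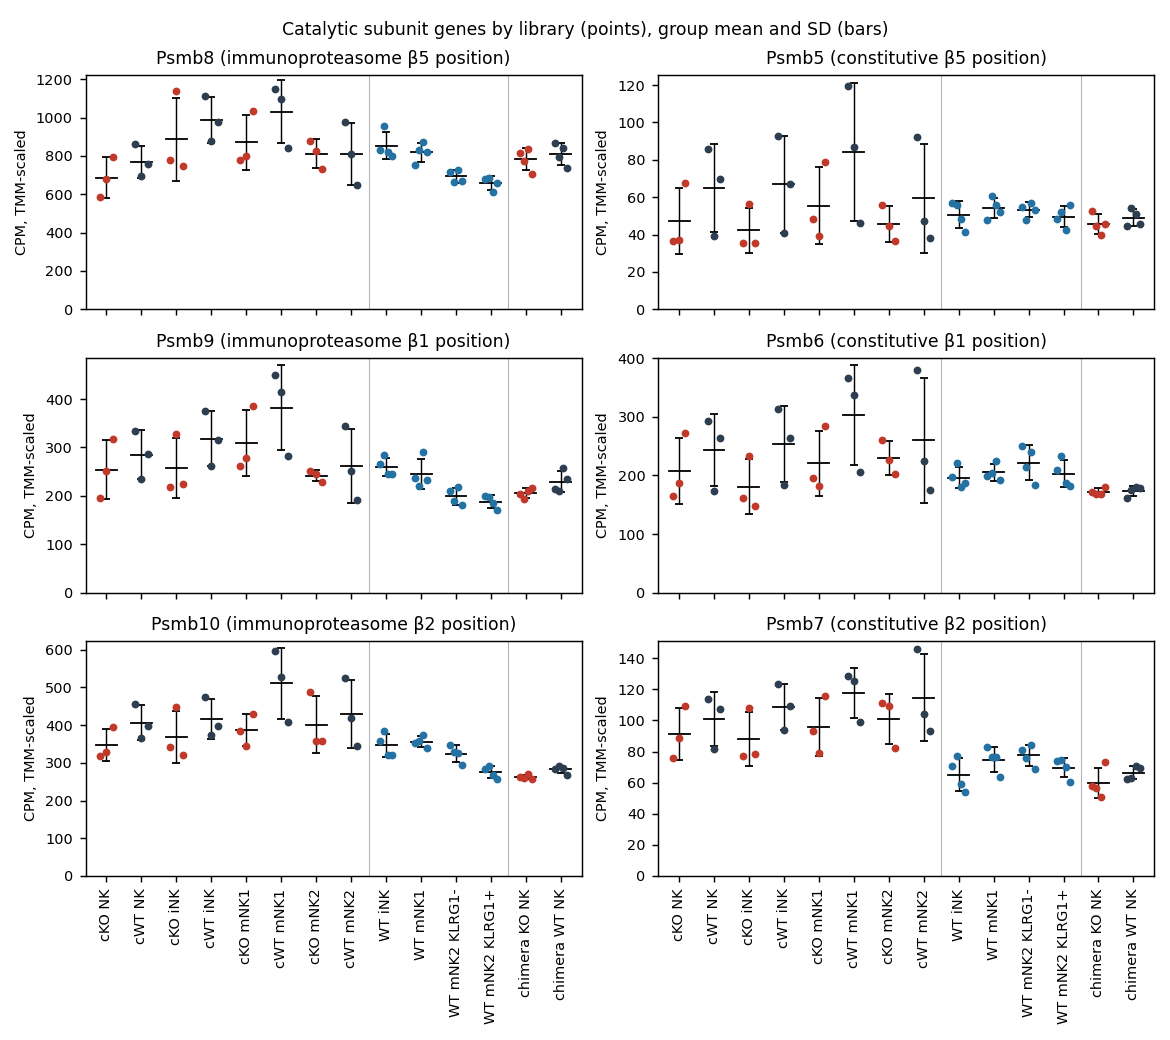
Levels of the 6 catalytic subunits (y axis, CPM, linear from 0, with a scale of its own in each panel) in each of the 48 libraries, by group (x axis). Points are libraries and bars mark the group mean and SD. Psmb8 falls along the WT stages to 609 to 686 CPM in KLRG1+ mNK2 cells, and the Psmb5 points of the conditional groups spread more widely than those of the other groups.

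In the WT subsets, the 3 immunoproteasome genes and the interferon-induced PA28 genes Psme1 and Psme2 were lower in KLRG1+ mNK2 than in iNK cells, while the constitutive catalytic genes and Psme3 did not pass the test. Psmb8, Psmb9, Psmb10, Psme1 and Psme2 were called lower by 0.33 to 0.59 on the log2 scale. The other members called lower were Psmg1, Psmg2, Psmc1 and Psma7, and Psmg1 and Psmg2 fell by more than any gene named before them. A call beside no call is not a test of a difference between genes. The count ratios of immunoproteasome to constitutive genes, given below, did not pass after adjustment. In the same comparison, 3 members were called higher and 9 lower, or 25% of the members, against a background of 30.6% of all genes (15% higher and 15.6% lower). The share of members called was thus no higher than that of all genes. Their median log2 fold change was -0.002, beside -0.019 for all genes.

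Psmb8 had 679, 686, 609 and 659 CPM in KLRG1+ mNK2 cells, against 832, 955, 823 and 798 CPM in iNK cells. The lowest iNK library lay above the highest KLRG1+ library, and the log2 fold change was -0.37 ± 0.07 (SE, n = 4 each, edgeR adjusted p = 0.0002388). The means fell along the stages, with 755, 831, 874 and 818 CPM in mNK1 cells and 715, 664, 729 and 667 CPM in KLRG1- mNK2 cells: 851.9 CPM in iNK, 819.5 in mNK1, 693.6 in KLRG1- mNK2 and 658.3 in KLRG1+ mNK2. Of the neighbours in this order, mNK1 with iNK and KLRG1+ with KLRG1- mNK2 overlapped, and Psmb8 was called lower in KLRG1- mNK2 than in mNK1 cells (-0.24 ± 0.07, edgeR adjusted p = 0.03712).

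Psmb9 had 199, 197, 185 and 171 CPM in KLRG1+ mNK2 cells, against 267, 284, 245 and 245 CPM in iNK cells (log2 -0.47 ± 0.09, edgeR adjusted p = 0.0003173). Psmb10 had 284, 292, 269 and 258 CPM, against 358, 384, 322 and 320 CPM in iNK cells (-0.33 ± 0.08, edgeR adjusted p = 0.001912). For both genes the groups did not overlap. The KLRG1- mNK2 libraries of Psmb10, at 348, 329, 326 and 295 CPM, overlapped with the mNK1 libraries, at 352, 359, 374 and 339 CPM, and lay above all KLRG1+ libraries. Neither of these single steps of Psmb10 was called (-0.13, edgeR adjusted p = 0.384 and -0.23 ± 0.08, edgeR adjusted p = 0.185).

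Psme1 and Psme2 had the 2 smallest adjusted p-values among the members. Psme1 had 298, 316, 310 and 323 CPM in KLRG1+ mNK2 cells, against 467, 494, 442 and 407 CPM in iNK cells (log2 -0.54 ± 0.08, edgeR adjusted p = 5.167e-06). Psme2 had 114, 113, 104 and 112 CPM, against 168, 182, 170 and 151 CPM in iNK cells (-0.59 ± 0.09, edgeR adjusted p = 1.068e-05). The groups stood clear of each other for both. Psme3, which encodes the nuclear PA28 gamma activator, is not interferon-induced as the other PA28 genes are, and it gave -0.06 ± 0.10 with overlapping libraries (148.1 ± 17.9 CPM in KLRG1+ mNK2 and 155.0 ± 21.1 CPM in iNK cells, SD, n = 4 each). None of these 5 calls for Psmb8, Psmb9, Psmb10, Psme1 and Psme2 was lost when any 1 of the 8 libraries was left out. With a covariate added after the data had been seen, the mean level of short transcripts in each library, Psmb8 (-0.28), Psme1 (-0.43) and Psme2 (-0.44) kept their calls. Those of Psmb9 (-0.24, edgeR adjusted p = 0.0644) and Psmb10 (-0.17, 0.158) were then lost.

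The constitutive catalytic genes did not pass the test in this comparison, although Psmb6 did with the short-transcript covariate (0.31, edgeR adjusted p = 0.0325). Psmb5 had 48.4, 52, 42.2 and 55.6 CPM in KLRG1+ mNK2 cells, against 56.9, 56.1, 48.2 and 41.5 CPM in iNK cells, a log2 fold change of -0.03 with a 95% interval of -0.29 to 0.22. Psmb6 gave 0.05 (-0.15 to 0.25) and Psmb7 gave 0.10 (-0.14 to 0.34). All 3 pairs of groups overlapped. A direct comparison with Psmb8, Psmb9 and Psmb10 is given by the count ratios below, none of which passed after adjustment. The other beta subunits, which are structural, had no call, and of the 7 alpha subunits 1, Psma7, was called lower (-0.34 ± 0.09, edgeR adjusted p = 0.005602; -0.10 and 0.478 with the covariate).

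A ratio of 2 genes within a library can be set beside that of another group without library scaling or gene length. It can still move with the mean log2 level of short transcripts in a library. In cWT NK cells the log2 Psmb8 to Psmb5 ratio was 3.3272, 3.4375 and 4.1533 at short-transcript levels of 4.777, 4.554 and 3.998. In cKO NK cells it was 3.5583, 4.2004 and 3.9902 at levels of 4.587, 4.071 and 3.866. The short-transcript level averaged 4.79 in WT iNK and 4.53 in KLRG1+ mNK2 cells. Its part in the ratio differences of any comparison was not tested. The log2 count ratio of Psmb9 to Psmb6 was -0.10 ± 0.10 in KLRG1+ mNK2 and 0.41 ± 0.04 in iNK cells (SD, n = 4 each), that of Psmb8 to Psmb5 was 3.74 ± 0.13 and 4.08 ± 0.16, and that of Psmb10 to Psmb7 was 1.99 ± 0.07 and 2.42 ± 0.11. The differences were -0.52, -0.34 and -0.43, and in none of the 3 pairs did the groups overlap. The two-sided exact permutation p was 0.0286 for each, which is the smallest that 4 against 4 libraries allow, and 0.107 after adjustment over the 15 ratio tests, so none passes at 0.05.

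Between neighbouring WT stages, the largest ratio difference was that of Psmb9 to Psmb6 between mNK1 and KLRG1- mNK2 cells. No ratio test passed after adjustment, so the step at which a ratio changes is not established. The Psmb9 to Psmb6 ratio was -0.15 ± 0.10 in KLRG1- mNK2 and 0.25 ± 0.10 in mNK1 cells, without overlap (SD, n = 4 each, exact permutation p = 0.0286, adjusted 0.107). KLRG1+ and KLRG1- mNK2 cells, at -0.10 and -0.15, overlapped. In the conditional experiment, where 3 libraries per group allow no exact p below 0.1 and no test was made, the same ratio was 0.08 ± 0.12 in mNK2 and 0.49 ± 0.11 in mNK1 cells of the cKO group and 0.05 ± 0.17 and 0.35 ± 0.09 in the cWT group (SD, n = 3 each). It did not overlap between these stages in either genotype. The ratios of the other 2 pairs did not follow in both genotypes: for Psmb8 to Psmb5 the difference of mNK2 from mNK1 cells was 0.14 in the cKO and 0.15 in the cWT group, with overlap, and for Psmb10 to Psmb7 it was -0.04 with overlap in the cKO and -0.20 without overlap in the cWT group.

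**Figure D2:**
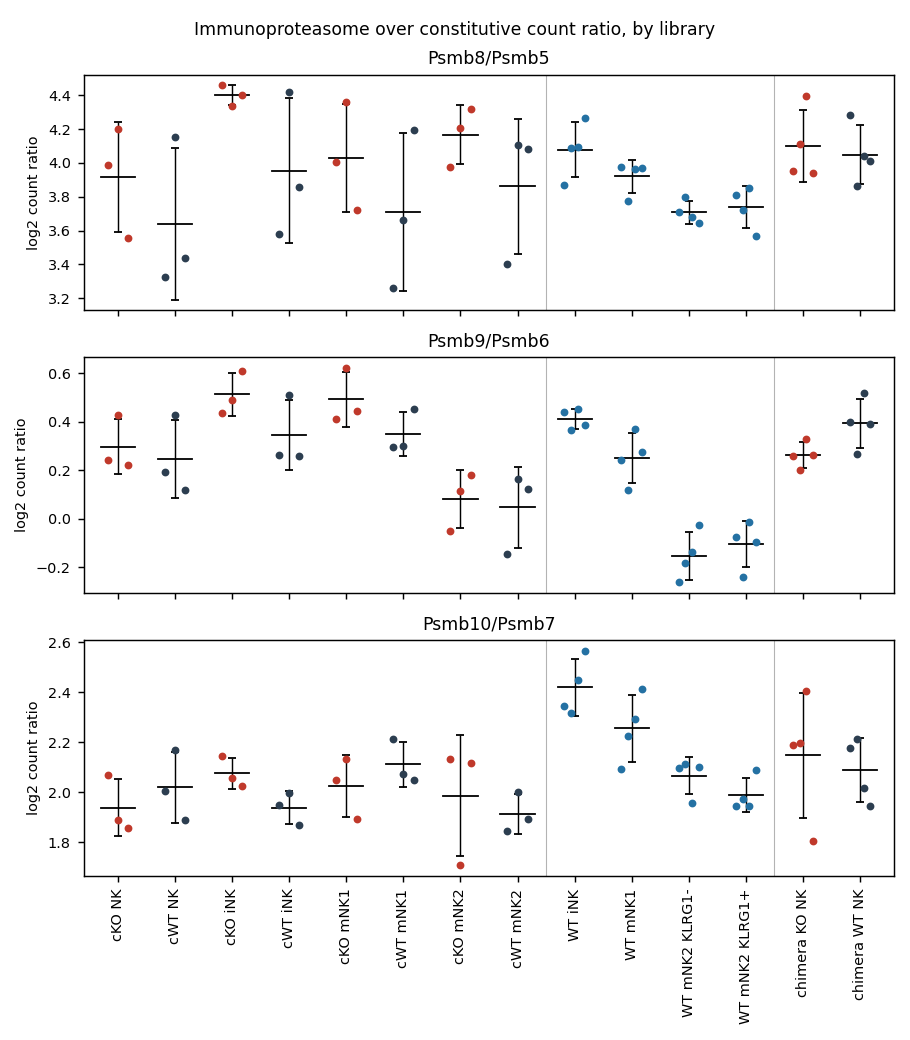
Log2 count ratio of each immunoproteasome subunit to its constitutive counterpart (y axis) in each library, by group (x axis), with 1 panel per pair. Points are libraries and bars mark the mean and SD. The Psmb9 to Psmb6 ratio is lower in mNK2 than in mNK1 libraries, without overlap, in the cKO, cWT and WT sets.

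Of 12 other genes of MHC class I presentation, 1 was called higher and 4 lower in KLRG1+ mNK2 against iNK cells, beside 15% and 15.6% of all genes. Tapbpl, a peptide editor of class I loading, had the largest of these changes, with 114.6 ± 7.5 CPM in KLRG1+ mNK2 and 276.2 ± 24.4 CPM in iNK cells (SD, n = 4 each, log2 -1.27, edgeR adjusted p = 1.262e-09). B2m, the class I light chain, gave -0.39 and Nlrc5, the transactivator of class I genes, -0.55, while the heavy chain H2-D1 gave 0.38. Tap1, which shares its promoter window with Psmb9 and is named for that reason, had 281.5 ± 9.4 CPM in KLRG1+ mNK2 and 319.6 ± 36.5 CPM in iNK cells and was not called (-0.18, edgeR adjusted p = 0.0964).

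Of 20 interferon response genes, 1 was called higher and 9 lower, and the median log2 fold change of the list was -0.503. Among those called with the smallest adjusted p were Socs1 (-2.05), an inhibitor of cytokine signalling, Usp18 (-1.52), which removes ISG15 from proteins, and Irf7 (-0.76), a transcription factor of the type I interferon response. Stat2, a signal transducer of that response, was the gene called higher (0.81). Socs1 stood at 9.28 ± 2.12 CPM in KLRG1+ mNK2 and 38.2 ± 2.2 CPM in iNK cells (SD, n = 4 each). Nfe2l1 encodes NRF1, a factor known to raise proteasome genes when the proteasome is inhibited, and it was called higher (0.63, edgeR adjusted p = 0.001642). That gene list, the NRF1 axis, held 1 higher and 1 lower call among 8, and the lower one was Mafg. The part of either gene in the levels of the members was not tested.

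The iNK libraries also held more T and B cell marker transcripts. All 6 T cell markers were called lower in KLRG1+ mNK2 cells, with a summed level of 4.37 to 6.02 CPM against 705.2 to 877.9 CPM in iNK cells, and Cd4 and Cd5 were at 0 in all KLRG1+ mNK2 libraries. All 5 tested B cell markers were lower, with 9.80 to 14.2 CPM against 58.4 to 161.4 CPM. Of the cell cycle list, 8 of 20 genes were lower and none was higher (edgeR). Of 4 tested myeloid and dendritic markers 2 were higher, and of 6 neutrophil markers none was called, with summed levels of 0.11 to 23.4 CPM in KLRG1+ mNK2 and 0 to 0.464 CPM in iNK cells. Their part in the lower Psmb8, Psmb9, Psmb10, Psme1 and Psme2 levels was not tested.

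The step of KLRG1- mNK2 against mNK1 cells had 3 called members, all lower, or 6.25% of the members, against a background of 7.29% of genes. They were Psme1 (345.9 ± 26.2 CPM in KLRG1- mNK2 and 426.1 ± 25.3 CPM in mNK1 cells), Psmb8 (693.6 ± 33.4 and 819.5 ± 49.2 CPM) and Psmb9 (199.0 ± 17.5 and 244.9 ± 30.5 CPM; SD, n = 4 each). No other member passed. The calls rest on few libraries: Psmb8 was lost in 5 and Psmb9 in 6 of 8 fits that left out 1 library, with edgeR adjusted p up to 0.131 and 0.22. Psme1 was lost in 2, without mNK1 replicate 3 (0.0592) or KLRG1- mNK2 replicate 4 (0.0564), and no member was then called. At this step 17 of 20 cell cycle genes were lower, with a median log2 fold change of -2.573, and so were 7 of 20 interferon response genes. T cell marker sums were 4.70 to 11.2 CPM in KLRG1- mNK2 and 47.4 to 70.7 CPM in mNK1 cells, with 4 of 6 markers called lower. B cell marker sums were 11.4 to 19.9 CPM in KLRG1- mNK2 and 25.3 to 82.7 CPM in mNK1 cells, with 2 of 5 called lower. Their part in the lower Psme1, Psmb8 and Psmb9 levels was not tested.

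Between mNK1 and iNK cells 1 member was called (background 10.5%), Psmd11 (0.29), and that call was lost in 4 of 8 left-out fits (edgeR adjusted p up to 0.114). Between KLRG1+ and KLRG1- mNK2 cells edgeR and DESeq2 each called 0 members (background 1.36%), and 6 members had an unadjusted edgeR p under 0.05.

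Across the 2 experiments with maturation stages, the latest stage was set against iNK in 3 sets of libraries that share none: mNK2 in cKO, mNK2 in cWT and KLRG1+ mNK2 in WT animals. In this comparison 5 members were called in the same direction in all 3, a set named after its values were seen. That their libraries do not overlap, as given below, follows in part from this choice and is no separate support. The 19S genes Psmc2, Psmc3 and Psmd11 were higher and the assembly chaperone genes Psmg1 and Psmg2 were lower. These are 10.4% of the members, and of 10943 genes tested in all 3 comparisons 2112, or 19.3%, were called the same way in all of them. With the short-transcript covariate Psmg1 and Psmg2 kept their calls in all 3, while Psmc2 (0.19, edgeR adjusted p = 0.188), Psmc3 (0.29, 0.0622) and Psmd11 (0.25, 0.0961) lost theirs in the WT subsets and kept them in cKO and cWT cells. In cKO cells 4 members were called higher and 4 lower, or 16.7% (background 40.4%, with 16.7% higher and 23.7% lower), and in cWT cells 4 were higher and 2 lower, or 12.5% (background 36.7%, with 16.9% higher and 19.8% lower). Both shares lay below the background, and the difference from it was not tested.

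Psmc3 and Psmc2 encode ATPases of the 19S base. Psmc3 had 370, 342 and 352 CPM in cKO mNK2 cells, against 267, 298 and 258 CPM in cKO iNK cells (log2 0.37 ± 0.07, edgeR adjusted p = 7.732e-05). It had 308, 329 and 311 CPM in cWT mNK2 cells, against 262, 294 and 270 CPM in cWT iNK cells (0.20 ± 0.07, edgeR adjusted p = 0.02167). In the WT subsets it had 219, 221, 206 and 213 CPM in KLRG1+ mNK2 cells, against 154, 174, 197 and 153 CPM in iNK cells (0.34 ± 0.09, edgeR adjusted p = 0.003739). The groups were apart in all 3 sets. The cWT call was lost in 2 of 6 fits that left out a library, without iNK replicate 1 or mNK2 replicate 2, with edgeR adjusted p up to 0.0972.

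Psmc2 rose by 0.21 in cKO, 0.21 in cWT and 0.23 in WT cells, with 326, 300 and 307 CPM in cKO mNK2 cells, against 269, 282 and 256 CPM in cKO iNK cells. These are small steps, and each call can be lost: in 1 of 6 left-out fits in cKO cells (without mNK2 replicate 1, edgeR adjusted p = 0.0586), in 1 of 6 in cWT cells (without mNK2 replicate 2, 0.0547) and in 4 of 8 in WT cells (up to 0.104). Psmd11 encodes a scaffold subunit of the 19S lid. It had 301, 294 and 285 CPM in cKO mNK2 cells, against 254, 256 and 238 CPM in cKO iNK cells, and 277, 305 and 290 CPM in cWT mNK2 cells, against 224, 235 and 245 CPM in cWT iNK cells. In the WT subsets Psmd11 had 131, 137, 127 and 121 CPM in KLRG1+ mNK2 cells, against 98.2, 103, 104 and 98.4 CPM in iNK cells. No library of the later stage fell into the range of the iNK libraries, and the Psmd11 log2 fold changes of 0.23, 0.31 and 0.35 kept their call in every left-out fit, though not, in the WT subsets, with the covariate.

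Psmg1 had 24.8, 21.8 and 22.5 CPM in cKO mNK2 cells, against 30.5, 46.9 and 31.8 CPM in cKO iNK cells, and 36.4, 23.7 and 23.6 CPM in cWT mNK2 cells, against 45.3, 39.8 and 42.2 CPM in cWT iNK cells. It had 12.4, 21, 17.1 and 23.8 CPM in KLRG1+ mNK2 cells, against 32.6, 28.5, 37.6 and 33.3 CPM in WT iNK cells. The log2 fold changes of Psmg1 were -0.66 ± 0.20, -0.61 ± 0.20 and -0.84 ± 0.18 (edgeR adjusted p 0.01191, 0.02084 and 0.0007134). All 3 comparisons were free of overlap, but the cKO value rests in part on iNK replicate 2, the highest library: without it the difference was -0.36 (edgeR adjusted p = 0.189). The cWT call was lost in 4 of 6 left-out fits.

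Psmg2, the partner of Psmg1, fell by 0.74 in cKO, 0.76 in cWT and 0.98 in WT cells on the log2 scale (edgeR adjusted p 0.01077, 0.009226 and 0.0001179). It had 18, 18.5, 15.5 and 24.3 CPM in KLRG1+ mNK2 cells, against 33, 31.4, 44 and 41.7 CPM in WT iNK cells, so the later libraries all lay below the iNK libraries. Without cKO iNK replicate 2 the cKO value of Psmg2 was -0.39 (edgeR adjusted p = 0.189), and the cWT call was lost in 3 of 6 left-out fits, while the WT call was lost in none of 8. The same 3 comparisons held marked changes of cell type markers and cell cycle genes. T cell marker sums were 5.17 to 8.89 CPM in cKO mNK2 and 1227 to 1884 CPM in cKO iNK cells, and 5.59 to 15.6 CPM in cWT mNK2 and 1307 to 2068 CPM in cWT iNK cells. B cell marker sums were 37.4 to 60.5 CPM in cKO mNK2 and 626.9 to 1127 CPM in cKO iNK cells, and 28.8 to 40.9 CPM in cWT mNK2 and 410.4 to 662.1 CPM in cWT iNK cells. Neutrophil marker sums ran the other way, with 15.6 to 23.7 CPM in cKO mNK2 and 0.128 to 0.308 CPM in cKO iNK cells (3 of 6 markers called higher), and 32.6 to 176.2 CPM in cWT mNK2 and 0 to 0.0613 CPM in cWT iNK cells (6 of 6). Of 6 myeloid and dendritic markers, 1 was higher and 3 lower in each genotype. Of 20 cell cycle genes, 19 were lower in cKO and 20 in cWT cells. Their part in the Psmc2, Psmc3, Psmd11, Psmg1 and Psmg2 differences was not tested.

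**Figure D3:**
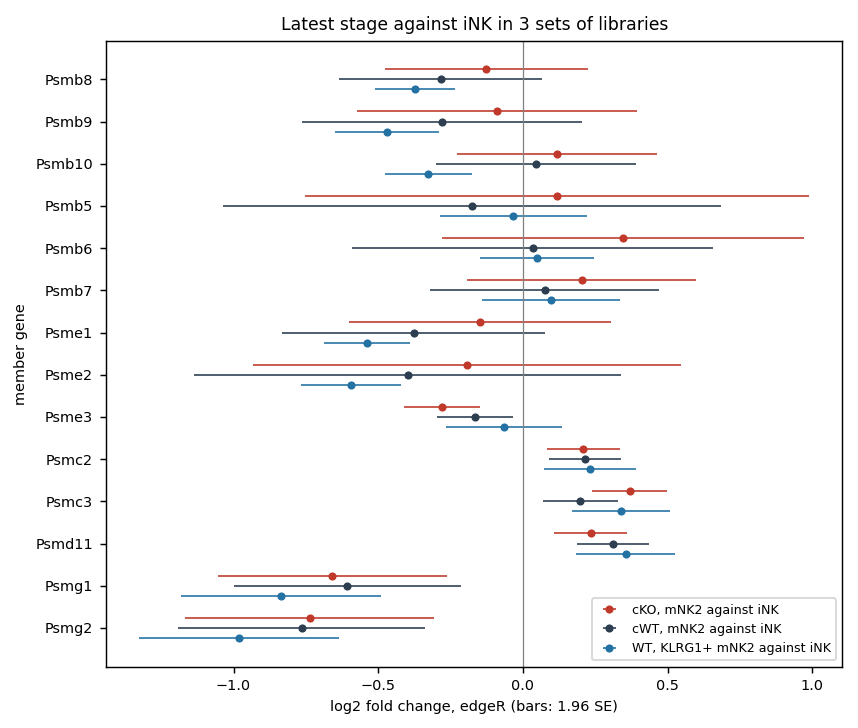
Log2 fold change (x axis) of the latest stage against iNK for 14 members (y axis) in the cKO, cWT and WT libraries. Points are edgeR estimates and bars span the 95% interval. The 19S genes Psmc2, Psmc3 and Psmd11 lie above 0 and Psmg1 and Psmg2 below 0 in all 3 sets, and the bars of Psmb5 are the widest of the catalytic genes in cKO and cWT cells.

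The remaining calls of these stage comparisons were few, and several depend on single libraries. In cKO mNK2 against iNK cells, Psmd14, the deubiquitinase of the lid, was higher (0.29), and Psme3 (-0.28) and the lid subunit Psmd7 (-0.21) were lower. Psme3 was also lower in cKO mNK1 than in cKO iNK cells (-0.20), the only member called at that step (background 22.7%). In cWT mNK2 against iNK cells the 19S chaperone Psmd5 was higher (0.22). Psmc3 was the member called in cKO mNK2 against mNK1 cells (0.27, background 21.3%), Psmd11 in cWT mNK1 against iNK cells (0.19, background 18.5%), and the 19S chaperone Psmd9 (-0.32) and Psmc3ip (-0.79) in cWT mNK2 against mNK1 cells (background 20.2%). In the WT subsets the 19S ATPase gene Psmc1 was lower in KLRG1+ mNK2 than in iNK cells (63.1 ± 4.8 and 88.3 ± 13.6 CPM, SD, n = 4 each, -0.48). Psmc1 thus moved against Psmc2 and Psmc3, the other ATPase genes called there, and its call was lost with the covariate (-0.37, edgeR adjusted p = 0.0754). When 1 library was left out, the calls of Psmd14, of Psme3 in cKO mNK2 against iNK cells and of Psmc3 were lost in none of 6 fits. Those of Psmd7 were lost in 5 (edgeR adjusted p up to 0.548), of Psmc3ip in 5 (up to 0.258), of Psmd11 in cWT mNK1 against iNK cells in 5 (up to 0.282), of Psmd9 in 4 (up to 0.182), of Psme3 in cKO mNK1 against iNK cells in 3 (up to 0.122) and of Psmd5 in 2 (up to 0.123).

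In cKO and cWT cells the immunoproteasome genes and the PA28 genes Psme1 and Psme2 did not pass the test between mNK2 and iNK cells. Psmb8 had 880, 826 and 731 CPM in cKO mNK2 cells, against 777, 1136 and 748 CPM in cKO iNK cells, and 975, 809 and 650 CPM in cWT mNK2 cells, against 1112, 876 and 976 CPM in cWT iNK cells. The libraries of the stages overlapped widely in both genotypes. The log2 fold changes of Psmb8 were -0.13 (95% interval -0.48 to 0.22) and -0.28 (-0.63 to 0.07), and both intervals hold the value of -0.37 from the WT subsets. Psme1 gave -0.15 (-0.60 to 0.31) and -0.38 (-0.83 to 0.08). Whether the WT subsets differ from these genotypes was not tested.

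These intervals are wide because libraries of 1 group differed by more in the conditional experiment, and unequally by role. The median coefficient of variation (CV) of a member within a group was 14.4% in the conditional libraries, 8.09% in WT subsets and 7.29% in chimeras. In the conditional libraries it was 4.02% for the 6 ATPase genes of the 19S and 5.03% for the 11 non-ATPase genes, but 18.6% for the alpha subunits, 28.9% for the structural beta subunits and 25.8% for the constitutive catalytic genes. Psmb5 had a median CV of 37.5% and the 19S ATPase gene Psmc5 of 3.0%. In the WT subsets the ATPase genes stood at 7.07% and the constitutive catalytic genes at 10.3%.

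Over all members, the spread in the conditional libraries went with transcript length, and in the other experiments more with the level. Over the 48 members, Spearman's rho between CV and the length of the principal transcript was -0.593 in the conditional libraries, -0.157 in WT subsets and -0.0212 in chimeras. Between CV and the negative log level, so that a positive rho means a wider spread of low genes, it was -0.0138, 0.479 and 0.58 in the same order. These are descriptions across genes, which share libraries and are not independent. Length was also not separate from role. In the conditional libraries the 20S genes Psma2 (2911 bases) and Psmb1 (1758 bases) had median CVs of 27.9% and 26.7%. The shorter 19S genes Psmc5 (1316 bases) and Psmd4 (1332 bases) had 3.0% and 5.01%. The mean log2 level of 849 genes outside the members with transcripts of at most 1000 bases, used as a short-transcript index, had a median range within a group of 0.75 in the conditional libraries, against 0.218 in WT subsets and 0.17 in chimeras (758 and 723 genes there). For 15 of 48 members the library with the highest level was the one with the highest index in all 8 conditional groups. These include all 3 constitutive, all 3 immunoproteasome and all 4 structural beta genes. The order of the 3 libraries was the same for Psmb5 and the index in 7 of 8 groups, and for Psmc3 in 0 of 8.

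**Figure D4:**
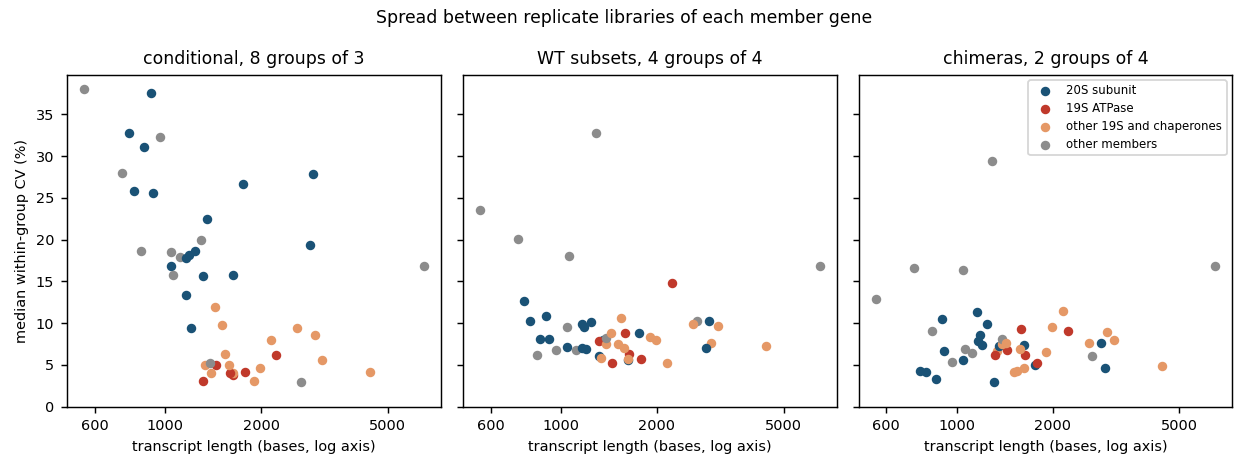
Median CV within groups (y axis, percent) of each of the 48 members against the length of its principal transcript (x axis, bases, log scale), with 1 panel per experiment. Points are members, coloured by role. Short members have CVs up to 38.0% in the conditional panel, where the 19S genes lie low, and no such slope is visible in the chimera panel.

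Between cKO and cWT cells no member was called in any fraction, by edgeR or by DESeq2. The counts at an unadjusted edgeR p under 0.05 were 0 in NK, 1 in iNK, 4 in mNK1 and 1 in mNK2 cells, and the backgrounds of called genes were 0.571%, 0.294%, 0.571% and 0.261%. In NK, iNK and mNK2 cells 32, 33 and 28 of 48 members had a negative log2 fold change. Their medians were -0.086, -0.142 and -0.042, beside 0.004, 0.023 and -0.018 for all genes. The count was largest in mNK1 cells, 42 of 48, with a median of -0.181 beside 0.006 for all genes. The values by role that follow are those of mNK1 cells. Negative values were found in all roles and differed in size, which was not tested between roles. The median was -0.512 for the 20S assembly chaperones, -0.261 for alpha subunits, -0.447 for structural beta subunits, -0.458 for constitutive catalytic genes and -0.306 for immunoproteasome genes, beside -0.04 for 19S ATPase genes (5 of 6 negative) and -0.034 for the non-ATPase genes (8 of 11 negative).

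Psmb5 had 48.4, 39 and 78.6 CPM in cKO mNK1 cells, against 119.7, 86.7 and 46 CPM in cWT mNK1 cells, and 35.3, 56.1 and 35.3 CPM in cKO iNK cells, against 92.8, 40.8 and 67.3 CPM in cWT iNK cells. In both fractions the genotypes overlapped, and the differences of -0.60 (95% interval -1.46 to 0.26) and -0.67 (-1.53 to 0.20) were well within the spread. Psmb8 had 777, 801 and 1035 CPM in cKO mNK1 cells, against 1148, 1099 and 843 CPM in cWT mNK1 cells (-0.24, -0.59 to 0.11). In mNK2 cells Psmb8 differed by 0.00 (-0.35 to 0.35). Of the members at an unadjusted p under 0.05 in mNK1 cells, Psmg1 had the smallest, with 23.3, 25.2 and 32.3 CPM in cKO, against 47.5, 39.2 and 32.3 CPM in cWT cells (-0.56 ± 0.20, edgeR adjusted p = 0.331).

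The short-transcript index was lower in cKO than in cWT groups in each fraction: 4.17 and 4.44 in NK, 4.22 and 4.58 in iNK, 4.39 and 4.74 in mNK1 and 4.20 and 4.41 in mNK2 cells. With this index as a covariate, added after the data had been seen, no member was called either (backgrounds 1.26%, 0.661%, 1.15% and 0.538% in the order NK, iNK, mNK1 and mNK2). The Psmb5 difference was then -0.10 ± 0.09 in iNK and -0.06 in mNK1 cells, and the median standard error of a member in mNK1 cells was 0.077, beside 0.163 without the covariate. The tests of genotype by stage called 0 members by edgeR or DESeq2 at each of the 3 steps, with 1 member each at an unadjusted edgeR p under 0.05 (backgrounds 0%, 0.00816% and 0.0489%).

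The covariate also changed the stage comparisons of the conditional experiment. Between mNK2 and iNK cells, 18 members were then higher and 5 lower in cKO cells (47.9% of members, background 50.5%, with 22.9% higher and 27.6% lower). In cWT cells 13 were higher and 8 lower (43.8%, background 45.5%, with 22.1% higher and 23.5% lower). More members were thus higher than lower, unlike all genes, and this difference was not tested. All 4 structural beta genes were higher in cKO and 3 in cWT cells, and of the PA28 and PA200 genes 4 of 5 were lower in cWT and 1 in cKO cells. Psmb8 was lower in cWT cells (-0.19, edgeR adjusted p = 0.038) and Psmb6 was higher in both genotypes (0.39 in cKO and 0.18 in cWT cells). Psmb9 was lower in mNK2 than in mNK1 cells of both genotypes (-0.18 in cKO and -0.29 in cWT cells). In the WT subsets the covariate left 1 member higher and 5 lower between KLRG1+ mNK2 and iNK cells. The higher one was the constitutive gene Psmb6 and the lower ones were Psmb8, Psme1, Psme2, Psmg1 and Psmg2. Of the 12 calls without the covariate 5 were kept and 7 lost, those of Psmb9, Psmb10, Psma7, Psmc1, Psmc2, Psmc3 and Psmd11. The background with the covariate was 20.4% (10.2% higher and 10.2% lower). The index averaged 4.53 in KLRG1+ mNK2 and 4.79 in iNK cells, without overlap, so index and stage are not separate in those groups.

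In the chimeras, where the Bach2 transcript was lower in the KO cells, 1 of 48 members was called, Psmg1 (background 5%). It had 15.8, 11.1, 16.7 and 17.5 CPM in KO cells, against 19.4, 24.8, 25.9 and 20.6 CPM in WT cells. The groups did not overlap and the log2 fold change was -0.57 ± 0.17 (SE, n = 4 each, edgeR adjusted p = 0.0474). That call lies at the threshold: it was lost in 6 of 8 fits that left out 1 library (adjusted p up to 0.185), which were those without KO replicate 1, 2 or 3 or without WT replicate 2, 3 or 4. It was also lost with the short-transcript covariate (-0.51, edgeR adjusted p = 0.0866). The median log2 fold change of the members was -0.013, beside -0.009 for all genes.

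The catalytic genes did not pass in the chimeras. Psmb6 (-0.02), Psmb7 (-0.16) and Psmb10 (-0.11) had edgeR adjusted p of 0.945, 0.554 and 0.468. Psmb8 had 816, 774, 838 and 704 CPM in KO cells, against 869, 792, 843 and 736 CPM in WT cells, a difference of -0.05 with a 95% interval of -0.20 to 0.10. Psmb5 had 52.7, 44.8, 39.8 and 45.9 CPM in KO cells, against 44.6, 54.4, 51.2 and 45.7 CPM in WT cells (-0.09, -0.31 to 0.12). The libraries overlapped for both. Psmb9 (-0.15, -0.30 to -0.01) and Psme2 (-0.15, -0.29 to -0.0042) had adjusted p of 0.336 and 0.347 by edgeR. The Psmb9 to Psmb6 ratio was 0.26 ± 0.05 in KO and 0.39 ± 0.10 in WT cells (log2, SD, n = 4 each, two-sided exact permutation p = 0.0571, adjusted 0.122). Of 12 MHC class I genes 1, Tapbpl, was lower in KO cells (-0.31).

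Marker transcripts of other cells differed in the chimeras too. B cell marker sums were 8.40 to 27.2 CPM in KO and 53.6 to 155.5 CPM in WT cells, and all 5 tested markers were lower. T cell sums were 13.6 to 21.7 CPM in KO and 79.1 to 145.1 CPM in WT cells, with 4 of 5 tested markers lower. Neutrophil sums were 120.9 to 571.9 CPM in KO and 2.37 to 58.9 CPM in WT cells, with 1 of 6 markers called higher. Their part in the Psmg1 difference was not tested.

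**Figure D5:**
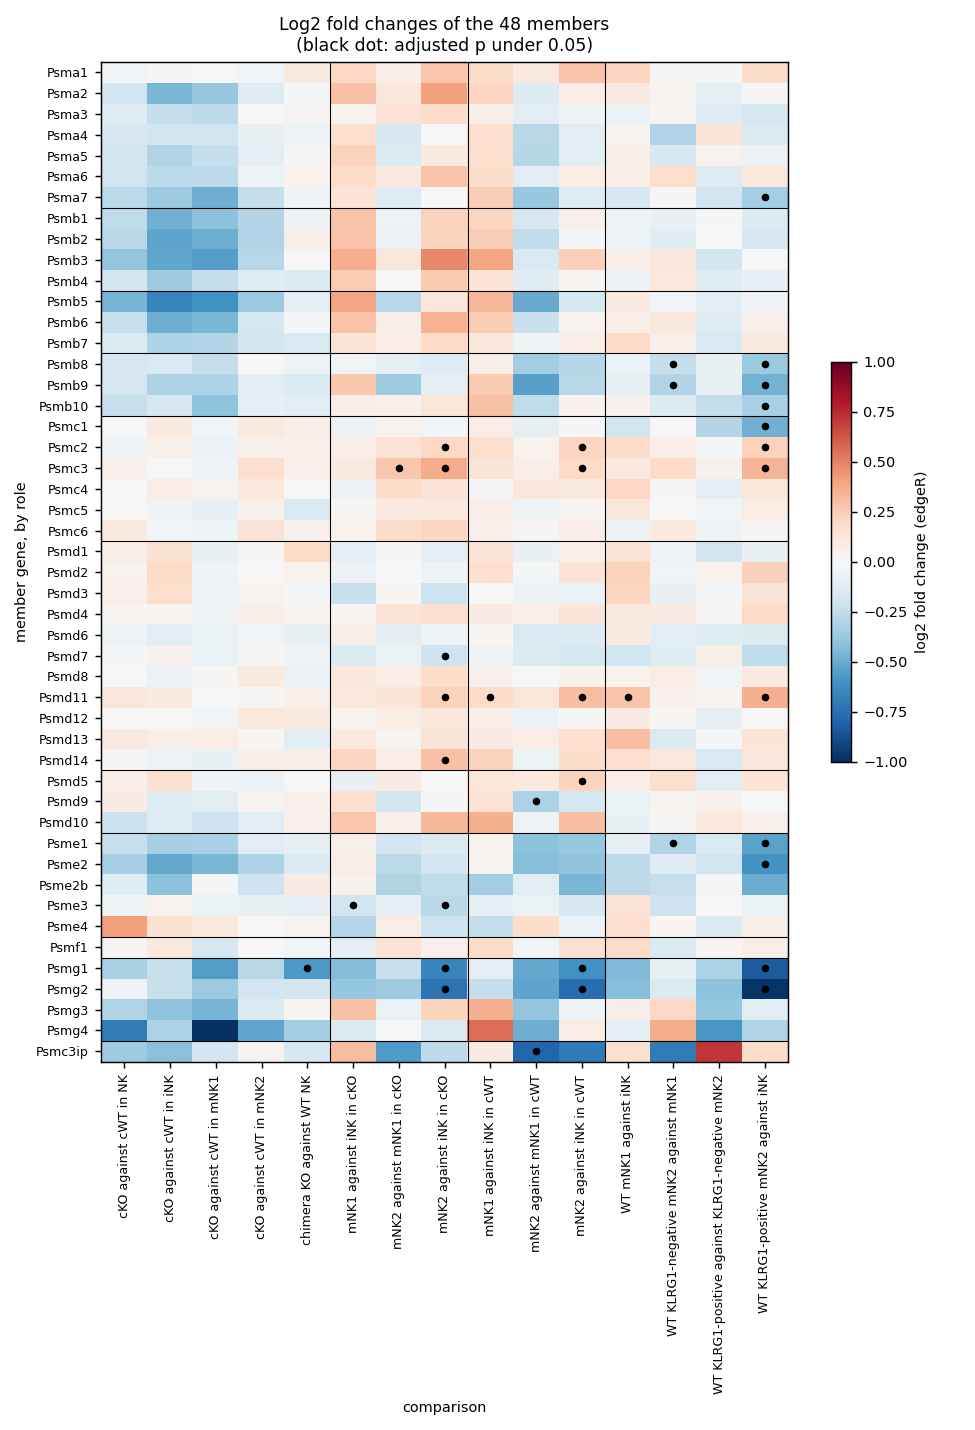
Log2 fold changes (colour) of the 48 members (rows, by role) in 15 comparisons (columns), each as the first-named group over the second. Black dots mark an edgeR adjusted p under 0.05. The cKO against cWT columns hold no dot, and the column of KLRG1+ mNK2 against iNK holds 12.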

How the data were processed

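RNA-seq read counts per gene symbol were used as the authors deposited them, 1 table per library. Total RNA was purified with the RNeasy chemistry and libraries were made with SMARTer chemistry, per the labels' protocols. FastQC, STAR 2.5.0 and the build mm9 are named in the submitters' processing notes. The counting tool, its strand setting and the annotation are not given in the sources used here, so overlapping and antisense genes, and Psme2 with Psme2b, are uncertain. Within groups, 0 of 60 pairs of libraries were identical.

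Each experiment was fitted apart with edgeR 4.0.16 (R 4.3.3, filterByExpr, TMM, quasi-likelihood F test with robust dispersion), which was also run on simulated data. The simulated counts were drawn separately for each gene and library. Shifts shared by many genes of a library, as in the short-transcript index, were therefore not part of them. Intervals of 95% come from the SE. Ratios were compared with two-sided exact permutation tests, adjusted over 15 tests. Transcript lengths are those of principal transcripts in GENCODE. Genes named are Bach2, the 6 catalytic and 3 PA28 genes, up to 5 called members per direction and comparison and up to 3 genes per other list, besides those named as chosen later. Another gene list that was tested is not reported here. The members and lists were chosen with earlier results of these data known. Alternatives were RLE factors, DESeq2 1.42.0, no low-count filter, Rn45s left out, Psmc3ip and Psme2b left out, a replicate block, only the groups compared, each library left out and, added later, a short-transcript covariate.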

Additional observations from a re-analysis of the deposited data

Results flagged for a closer look

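In 102 sets of 4 libraries (members named in each comparison and ratios, in 6 groups), 4 held a library whose gap to the nearest of the others was above Dixon's 95% critical value for 4 samples, as a share of the range of its group. By chance about 1 in 20 sets is marked, so 4 of 102 is not more than chance would give. The log2 ratio of Psmb8 to Psmb5 was 3.774 in WT mNK1 replicate 2, against 3.96 to 3.98 in the other 3 libraries. Psme3 stood at 160.5 CPM in KLRG1- mNK2 replicate 4, against 143.9 to 144.6 CPM in the others. The log2 ratio of Psmb10 to Psmb7 was 1.957 in KLRG1- mNK2 replicate 3, against 2.10 to 2.11 in the others. Psme2 stood at 104.2 CPM in KLRG1+ mNK2 replicate 3, against 112.4 to 114.0 CPM in the others.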

How the results depend on the processing

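Of the members followed by name, none reversed its direction under any alternative for a called result. In KLRG1+ mNK2 against iNK cells the called members Psmg1, Psma7 and Psmc1 were not followed under all alternatives. The 15 ratio tests passed no threshold, and the smaller designs with a library left out or with a block could not pass one, so they show nothing on stability. The counts of called members that moved by over 1.5 times follow, with the count of the report in parentheses. For cKO mNK1 against iNK (1) it was 0 with no low-count filter or only the groups compared, 2 with a replicate block and 7 with the short-transcript covariate. For cKO mNK2 against mNK1 (1) it was 2 with the block and 11 with the covariate, and for cKO mNK2 against iNK (8) it was 23 with the covariate. For cWT mNK1 against iNK (1) it was 0 with RLE factors, no filter, DESeq2 or only the groups compared, 3 with the block and 8 with the covariate. For cWT mNK2 against mNK1 (2) it was 1 with RLE factors, DESeq2, only the groups compared or Psmc3ip and Psme2b left out, 0 with no filter and 7 with the covariate. For cWT mNK2 against iNK (6) it was 21 with the covariate. For WT mNK1 against iNK (1) it was 2 with RLE factors or the covariate, 3 with the block or DESeq2, and 0 with no filter or only the groups compared. For KLRG1- mNK2 against mNK1 (3) it was 1 with no filter, for KLRG1+ mNK2 against iNK (12) it was 6 with the covariate, and for chimera KO against WT cells (1) it was 0 with RLE factors, Rn45s left out or the covariate. Leaving out 1 library gave 0 to 4 for cKO mNK1 against iNK, 1 to 2 for cKO mNK2 against mNK1, 6 to 14 for cKO mNK2 against iNK (14 without iNK replicate 2), 0 to 1 for cWT mNK1 against iNK, 0 to 4 for cWT mNK2 against mNK1, 2 to 8 for cWT mNK2 against iNK (2 without mNK2 replicate 2), 0 to 3 for WT mNK1 against iNK, 0 to 3 for KLRG1- mNK2 against mNK1, 11 to 14 for KLRG1+ mNK2 against iNK and 0 to 1 in the chimeras. In the 4 comparisons of cKO with cWT cells each such fit gave 0. The causes were not tested, apart from the fewer samples of the left-out fits. Equal replicate numbers were not taken as pairs, since in no comparison was every correlation of same-numbered libraries over 0.1. In the chimeras (r 0.0958 to 0.148) and in KLRG1+ against KLRG1- mNK2 cells (r 0.0358 to 0.0868) each of 8 libraries had its highest correlation with the library of equal number. This is a hint of pairs from the data. The sample titles do not say whether equal numbers share a host, which the mixed marrow of the chimeras would allow. The block changed no other count by over 1.5 times. RLE factors or leaving out Rn45s moved the median of all genes by less than 0.1 (log2). With 3 or 4 libraries per group, changes of a member below its interval were not detectable, and low members such as Psmg4 limit this most.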

Other observations

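Levels differed between experiments for a part of the members, and these values belong to no comparison, since the experiments share no group. Psma3, an alpha subunit gene, averaged 326 CPM in the conditional libraries, 27.3 CPM in the WT subsets and 25.9 CPM in the chimeras. Psmb3, a structural beta subunit gene, averaged 289, 68.4 and 60.5 CPM in the same order, and Psma5 averaged 139, 37.4 and 35 CPM. The assembly chaperone gene Psmg4 went the other way, with 7.47 CPM in the conditional libraries, 20 CPM in the WT subsets and 14.4 CPM in the chimeras. The cause was not tested. Psmc3ip averaged 6.73 CPM in the conditional libraries, so its place above the threshold of 5 CPM rests on those libraries.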
